A study of Mus musculus with 8 samples.

Results

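The 10 genes followed here in newborn mouse cortex are widely used to recognise astrocytes (Gfap, Aqp4, S100b, Gja1, Glul, Aldh1l1, Sparcl1, Mlc1, Clu and Ntsr2). All probes that the platform annotation gives one of these symbols were taken, which found 10 of 25697 probes. They read 9 of the 10 genes, since Aldh1l1 has a pair of probes, and Clu, which encodes the secreted chaperone clusterin, was not analysed here. The RNA came from cerebral cortex at postnatal day 0 of wild-type mice and of ERRγ-/- mice, which lack estrogen-related receptor gamma, a nuclear receptor encoded by Esrrg. There were 2 biological samples per genotype, and RNA of every sample went onto a first and a repeat (b) Illumina bead array, which makes 8 arrays. The sources used here do not give the strain, sex, kind of null allele or number of animals per sample. With the number of animals unknown, the spread between samples may be technical in part and may not measure variation between animals. All p-values rest on that spread between samples, drawn largely from all tested probes together rather than from each probe alone.

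Astrocytes are the glial cells that take up transmitter and potassium, couple to each other through gap junctions, line blood vessels with endfeet and secrete factors that act on synapses. In rodent cortex they arise from radial glia after most neurons have been born. Around birth they are few and immature, and many of their characteristic genes are known to increase over the following weeks. Known routes that promote the astrocyte fate are cytokine signalling through STAT3 and transcription factors of the nuclear factor I (NFI) family.

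Mean probe intensity ran from 390 to 639 over the 8 arrays, and the first array of wild-type sample 1 was the dimmest. Between 11022 and 12013 probes per array were above background, that is, had a detection p under 0.05. The Esrrg probe was not above background on any array (detection p from 0.357 to 0.761) and so does not check the genotype labels. Of 10 neuronal genes with a probe, taken as a check of the tissue, 7 had a tested probe, and Nefl, Neurod6 and Snap25 were above background on no array. The 3 probes of Dcx, an immature neuron gene, disagreed in level. One lay between 13.16 and 13.35 on the log2 scale, another between 12.66 and 12.84, and the last was above background on no array. Over all probes tested, 1 of 11568 differed between the genotypes by limma after adjustment, which is 0.00864%, and it read Xlr4a. That count was 0 with wild-type sample 2 or ERRγ-null sample 2 left out.

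Newborn cortex of both genotypes gave a split reading of the astrocyte genes. Gja1, Aldh1l1, Sparcl1 and Ntsr2 each had a probe above background on all 8 arrays, and Aqp4 had one above background on 7. Gfap, S100b, Mlc1 and Glul were not above background on any array of either genotype. None of the 5 probes that could be tested differed between ERRγ-null and wild-type cortex (0 by limma after adjustment, and 0 at an unadjusted p under 0.05). The unadjusted count was 1, Gja1, with median scaling and without wild-type sample 1. Over the whole array 45% of probes were above background on at least 4 of 8 arrays, against 5 of the 10 astrocyte probes, and 47.8% of all probes were above background on no array, against the other 5 astrocyte probes. Both shares were near those of all probes.

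**Figure D1:**
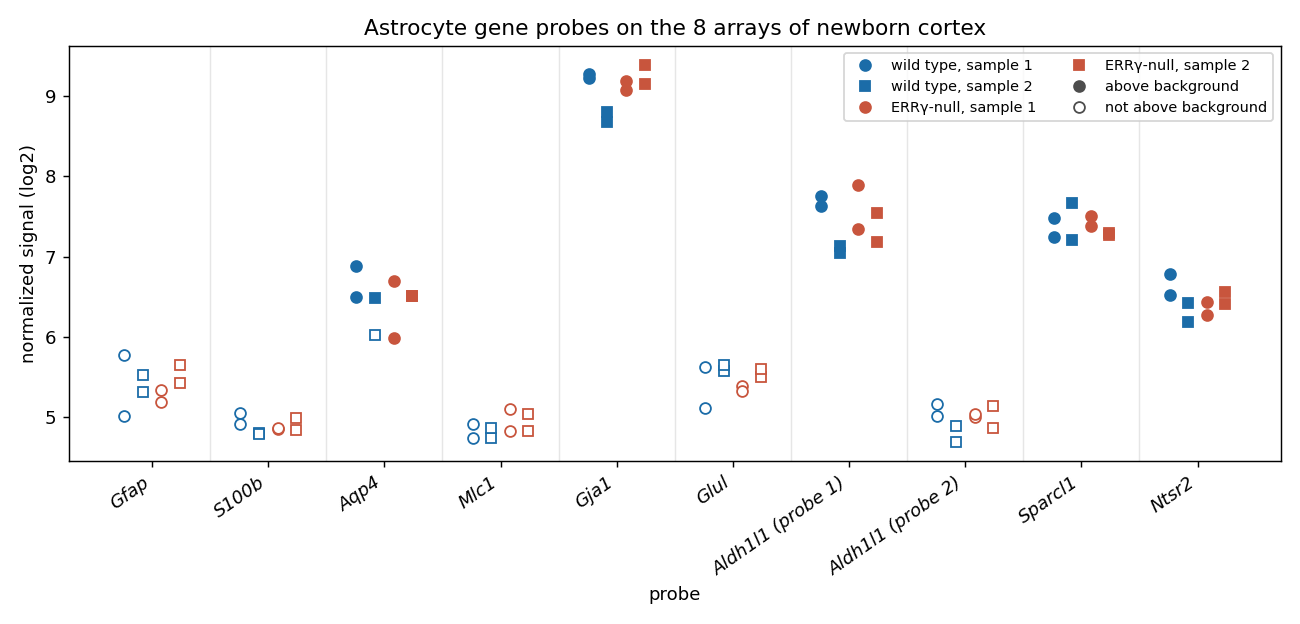
Normalized log2 signal (vertical axis) of each of the 10 astrocyte probes (horizontal axis) on the 8 arrays, with wild type in blue, ERRγ-null in red, circles for sample 1, squares for sample 2 and 2 points per sample for its arrays. Filled points are above background, which holds for every point of Gja1, 1 Aldh1l1 probe, Sparcl1 and Ntsr2, for 7 of 8 points of Aqp4, and for no point of the others. Levels of different probes are not comparable.

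Gfap and S100b, the genes of the astrocytic cytoskeleton and of a calcium-binding protein, had no probe above background. Gfap encodes the intermediate filament protein by which mature and reactive astrocytes are usually stained. Its log2 signal was 5.02 and 5.78 on the arrays of wild-type sample 1, 5.31 and 5.52 on those of wild-type sample 2, 5.19 and 5.34 for ERRγ-null sample 1 and 5.43 and 5.65 for ERRγ-null sample 2. The arrays of wild-type sample 1 were 0.76 apart, more than any wild-type array was from any null array, and the detection p ran from 0.0764 to 0.437. S100b, whose product binds calcium and is also secreted, had log2 signals between 4.79 and 5.05 and detection p from 0.387 to 0.852. The Gfap intensities of 103 to 152 were measured before normalization, without subtraction of background. For probes not above background in either genotype no fold is given.

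Membrane genes divided between those read and those not read. Gja1 encodes the main gap junction protein of astrocytes, which radial glia also carry. Its log2 signal was 9.23 and 9.28 on the arrays of wild-type sample 1 and 8.80 and 8.68 on those of wild-type sample 2. The arrays of ERRγ-null sample 1 gave 9.19 and 9.07, and those of sample 2 gave 9.39 and 9.15. Wild-type sample 2 was low on both arrays, and the other 3 samples lay together, so the genotypes overlapped. The SD between the samples was 0.36 in the wild type and 0.10 in the null (n = 2 each). Their mean difference of 0.20 had a standard error (SE) of 0.19 and a 95% confidence interval from -0.19 to 0.60 (limma adjusted p = 0.906). This was the largest of the 5 differences in size. It was 0.40 with median scaling (limma adjusted p = 0.403), where the median of all probes was 0.17, and 0.46 without wild-type sample 1 (limma adjusted p = 0.69). Before normalization the Gja1 intensity was 492, 648, 510 and 543 on the wild-type arrays and 713, 785, 825 and 709 on the null arrays. The separation seen in those raw intensities was thus not kept once the arrays, which differed in mean intensity, were brought to a common distribution.

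Aqp4, the water channel of astrocyte endfeet, lay close to background. Its log2 signal was 6.88 and 6.50 in wild-type sample 1, 6.02 and 6.48 in wild-type sample 2, 5.99 and 6.70 in ERRγ-null sample 1 and 6.51 on both arrays of ERRγ-null sample 2. The first array of wild-type sample 2 missed the background threshold, at a detection p of 0.0526 against the array's own negative controls. Arrays of ERRγ-null sample 1 differed by 0.72, more than any 2 sample means did, and the genotypes overlapped. The difference was -0.04 (SE 0.18, 95% confidence interval from -0.43 to 0.34, limma adjusted p = 0.99). Mlc1, which encodes a membrane protein of the same endfeet, was not above background on any array, with log2 signals from 4.74 to 5.10 and detection p from 0.315 to 0.935.

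The enzyme genes were read by 3 probes, of which 1 was above background. Aldh1l1 encodes a folate enzyme that marks astrocytes broadly, including immature ones. Its first probe gave log2 signals of 7.63 and 7.75 in wild-type sample 1, 7.05 and 7.13 in wild-type sample 2, 7.34 and 7.89 in ERRγ-null sample 1 and 7.18 and 7.54 in ERRγ-null sample 2. Both null samples therefore lay between the wild-type samples. The difference was 0.10 (SE 0.20, 95% confidence interval from -0.33 to 0.52, limma adjusted p = 0.974). The other Aldh1l1 probe, annotated to the same gene, was not above background on any array, at 4.69 to 5.17 and a detection p from 0.281 to 0.982. Glul encodes glutamine synthetase, which turns glutamate taken up by astrocytes into glutamine. Its log2 signal was 5.12 to 5.65 with detection p from 0.0852 to 0.326, so that it stayed below the threshold on all 8 arrays. For Glul as for Gfap, the array with the lowest value was the first array of wild-type sample 1. How well the single Glul and Gfap probes read their transcripts was not tested.

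The secreted protein gene and the receptor gene were read in both genotypes. Sparcl1 encodes hevin, a matrix protein that promotes synapse formation and is also made by other cells, such as endothelium. Its log2 signal was 7.48 and 7.24 in wild-type sample 1, 7.67 and 7.21 in wild-type sample 2, 7.51 and 7.38 in ERRγ-null sample 1 and 7.29 and 7.27 in ERRγ-null sample 2. These samples differed by at most 0.17 within a genotype, less than the 0.47 between the arrays of wild-type sample 2. The Sparcl1 difference was -0.04 (SE 0.16, 95% confidence interval from -0.38 to 0.31, limma adjusted p = 0.991). Ntsr2, the gene of a neurotensin receptor, had log2 signals of 6.78 and 6.52 in wild-type sample 1 and 6.42 and 6.18 in wild-type sample 2. It gave 6.27 and 6.44 in ERRγ-null sample 1 and 6.56 and 6.41 in ERRγ-null sample 2, inside the range of the wild type. The Ntsr2 difference was -0.06 (SE 0.17, 95% confidence interval from -0.42 to 0.31, limma adjusted p = 0.988).

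Sample values of the 2 genotypes overlapped for all 5 tested astrocyte probes (0 of 5 without overlap), where 35.1% of all tested probes showed no overlap. Of the 5, 2 were higher and 3 lower in ERRγ-null cortex, and their median log2 difference was -0.04 against 0.01 for all tested probes. All 5 intervals included 0. With median scaling of the arrays, which moved the median of all probes to 0.17, the Aqp4, Sparcl1 and Ntsr2 differences were above 0 but, as without it, below the median of all probes. In bulk cortex, fewer cells of a type and less RNA per cell cannot be told apart.

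The wild-type samples stood apart from each other for most of the tested astrocyte probes. Gja1 was higher by 0.51 on the log2 scale in wild-type sample 1 than in wild-type sample 2, Aldh1l1 by 0.60, Aqp4 by 0.44 and Ntsr2 by 0.36. Over all tested probes the same difference had a median of 0 and an SD of 0.262, close to the 0.259 between the null samples. These gaps are between single samples and are not comparable with differences of genotype means. For these 4 of 5 probes, both arrays of wild-type sample 1 lay above both arrays of wild-type sample 2, where 19.5% of all tested probes did so and 38.7% were separated in either direction. Wild-type sample 2 was also the lowest of the 4 samples for the same 4 probes, against 24.7% of all tested probes. In the wider astrocyte lists described below, both arrays of wild-type sample 1 lay above both of sample 2 for 21 of 68 tested probes. That is a larger share than the 19.5% of all tested probes. Wild-type sample 2 was the lowest for 18 of those 68, near the 24.7% of all tested probes. Neither feature held for most probes of the wider lists. Sparcl1 differed by -0.08. The gaps for Gja1 and Aldh1l1 were wider than those between the arrays of either wild-type sample (0.05 to 0.13). For these 4 probes the ERRγ-null samples were closer, with differences of sample 1 minus sample 2 from -0.16 for Aqp4 to 0.25 for Aldh1l1. Arrays of the null samples were separated for 1 of 5 probes, Sparcl1, against 44.6% of all tested probes. With the dimmest array, the first of wild-type sample 1, left out, the gap was 0.54 for Gja1, 0.66 for Aldh1l1, 0.25 for Aqp4 and 0.23 for Ntsr2. With the b arrays alone the Aqp4 gap was 0.02, and it was 0.86 with the first arrays alone. Without background correction the Aqp4 gap was 0.21 and the Ntsr2 gap 0.17, and with the authors' deposited normalized table they were 0.23 and 0.18.

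**Figure D2:**
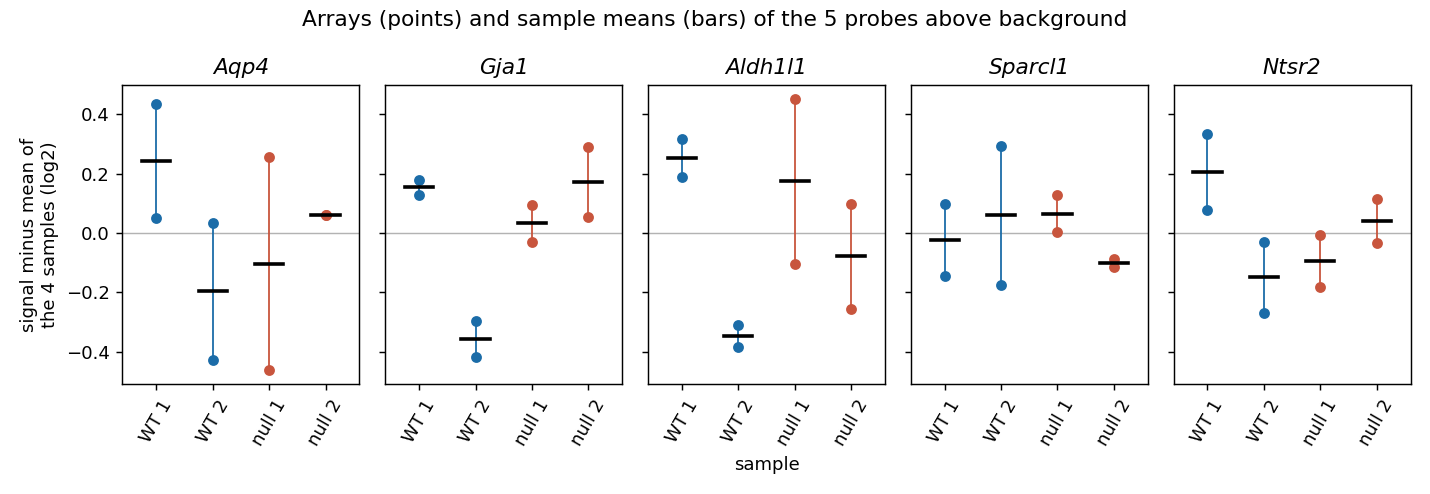
Log2 signal of each array (points) and sample mean (black bars) as the deviation from the mean of the 4 samples (vertical axis), for the 5 astrocyte probes above background, with 1 panel per gene (wild type blue, null red) and the samples on the horizontal axis. Wild-type sample 2 (WT 2) is lowest for Aqp4, Gja1, Aldh1l1 and Ntsr2, and the null samples overlap with the wild type in every panel.

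Promoter sequence was examined for motifs of the factors named above and of ERRγ itself. Of the 10 genes, 7 had an entry among RefSeq promoter windows of 300 bases, from 250 before to 50 after the start site (build GRCm38.p6), and Aqp4, Sparcl1 and Clu had none. Printed here are Gja1 (chr10:56377050-56377349, + strand), Aldh1l1 (chr6:90550543-90550842, + strand) and Ntsr2 (chr12:16653220-16653519, + strand), which each had a probe above background on all 8 arrays. Gfap (chr11:102897151-102897450, - strand) is shown as the marker that was not read above background. Each is given 5′ to 3′ along the gene. Capitals mark matches to the STAT site TTCNNNGAA or to the NFI single site TTGGC (1 arm of the full site) on either strand.
Gja1: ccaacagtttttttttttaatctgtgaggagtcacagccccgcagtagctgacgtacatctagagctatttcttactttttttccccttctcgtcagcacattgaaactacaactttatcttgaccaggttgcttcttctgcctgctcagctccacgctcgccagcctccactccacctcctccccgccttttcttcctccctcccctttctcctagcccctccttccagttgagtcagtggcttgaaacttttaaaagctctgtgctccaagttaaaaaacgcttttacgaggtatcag
Aldh1l1: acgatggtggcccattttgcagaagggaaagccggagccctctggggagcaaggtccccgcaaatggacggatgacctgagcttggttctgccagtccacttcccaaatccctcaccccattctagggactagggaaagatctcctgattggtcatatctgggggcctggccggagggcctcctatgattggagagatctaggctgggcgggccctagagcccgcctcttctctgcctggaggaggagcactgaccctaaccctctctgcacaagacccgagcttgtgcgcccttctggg
Ntsr2: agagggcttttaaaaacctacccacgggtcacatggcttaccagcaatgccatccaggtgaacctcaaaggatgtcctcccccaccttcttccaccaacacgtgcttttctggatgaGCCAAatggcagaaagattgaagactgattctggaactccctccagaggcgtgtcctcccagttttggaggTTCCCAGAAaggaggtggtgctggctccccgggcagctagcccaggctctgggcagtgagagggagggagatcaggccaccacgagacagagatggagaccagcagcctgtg
Gfap: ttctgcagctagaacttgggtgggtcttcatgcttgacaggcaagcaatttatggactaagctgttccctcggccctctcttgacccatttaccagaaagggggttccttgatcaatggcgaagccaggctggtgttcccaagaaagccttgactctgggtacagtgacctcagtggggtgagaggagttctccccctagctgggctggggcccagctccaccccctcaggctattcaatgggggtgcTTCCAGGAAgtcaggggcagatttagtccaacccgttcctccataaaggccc

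The STAT letters occurred in 2 of the 7 windows, Gfap and Ntsr2, and in 8.3% of the 32851 windows of all genes. In Gfap the match ran from base 249 to base 257 of the window, across the start site, and in Ntsr2 from base 189 to base 197. The NFI single site occurred in 4 of 7 windows (S100b, Mlc1, Glul and Ntsr2) and in 46.7% of all windows. The full palindromic NFI site, which holds the single site on both strands, occurred in 0 of 7 and in 0.0365% of all windows. The estrogen-related receptor element TCAAGGTCA occurred in 0 of 7 windows and in 0.423% of all, and the shorter AAGGTCA, which it contains, in 0 of 7 and in 4.72%. These are matches of letters within 300 bases on both strands and do not show binding. Gja1 and Aldh1l1 held none of these motifs in their windows. A link between motifs and signal was not tested.

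Other genes of astrocytes were taken from 7 lists by role, 83 genes in all, of which 75 had a probe and 51 were tested with 68 probes. None passed the limma test after adjustment (adjusted p from 0.551 to 0.999). At an unadjusted limma p under 0.05 there were 8 of 68 probes, 11.8%, against 7.07% of all probes. Of the 8, 7 were lower in ERRγ-null cortex, 10.3% of the 68 against 3.5% of all probes, and 1 was higher, against 3.57%. The lower ones include Slc39a12, which passed the filter only through its wild-type arrays. The median log2 difference was -0.01, with 31 probes higher and 37 lower. The 7 lower ones became 2 with median scaling, where the median of all probes was 0.17 and the higher ones went from 1 to 4. The lower ones were 3 with the b arrays alone and 11 when all 124 probes were tested. This set of alternative counts was chosen after seeing the data.

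Genes of transmitter uptake and ion transport had 6 tested probes, with a median log2 difference of -0.15 and 4 of them lower. Slc1a3, the gene of the glutamate transporter GLAST that radial glia already carry, had log2 signals of 12.32 and 12.22 in the wild-type and 12.01 and 12.21 in the null samples. Slc1a2, the transporter gene GLT-1 of mature astrocytes, had 1 of 4 probes tested and the other 3 above background on no array. Slc7a10, an amino acid transporter gene, lay at 6.93 and 6.55 in wild-type and 6.35 and 6.14 in null samples, without overlap (difference -0.49, SE 0.18, limma adjusted p = 0.589). The zinc transporter family gene Slc39a12 had a signal above background on all 4 arrays of wild-type cortex but on 0 of 4 from null cortex. Slc39a12 entered the test only through those wild-type arrays, so the filter itself favoured a lower null value. Its log2 signal was 6.14 and 6.15 in wild-type and 5.63 and 5.68 in null samples. Its measured wild-type mean was at least 1.22-fold higher (limma adjusted p = 0.588), a lower limit set by the dimmest signals above background that leaves out sampling error. Atp1b2, a subunit gene of the sodium pump, differed by 0.21 and the GABA transporter gene Slc6a11 by -0.15.

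Partners of the membrane genes and receptors had 11 tested probes and a median of -0.02. Dag1 encodes dystroglycan, which anchors aquaporin-4 at endfeet. One Dag1 probe lay at 9.65 and 9.39 in wild-type and 9.97 and 10.06 in null samples (difference 0.50, SE 0.17, limma adjusted p = 0.588), whereas the other Dag1 probe differed by 0.05. The endothelin receptor gene Ednrb differed by -0.01 and -0.13 on its tested probes and the GABA-B receptor gene Gabbr1 by -0.23. Gjb6, another connexin gene, and Hepacam, which encodes the adhesion partner of MLC1, were above background on no array.

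Metabolic genes were the list read most completely, with 10 of 11 probes tested, 7 higher and 3 lower, and a median of 0.05. Aldoc, the gene of the astrocytic aldolase, lay at 10.87 and 10.80 in wild-type and 11.17 and 10.61 in null samples. The glycine cleavage gene Gldc differed by 0.15 and 0.03 on its probes, and the metallothionein gene Mt1 by -0.08. Mt3, the brain metallothionein gene, was at 8.94 and 8.92 in wild-type and 8.63 and 8.53 in null samples, without overlap (difference -0.35, SE 0.16, limma adjusted p = 0.673).

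Secreted proteins had 9 tested probes and a median of 0.01. The cystatin gene Cst3 differed by 0.07 and the proteoglycan gene Ncan by -0.14. For Bcan, the gene of the proteoglycan brevican, 1 probe differed by -0.47 (SE 0.17, limma adjusted p = 0.589) and another by 0.24. Sparc, the relative of Sparcl1, likewise gave -0.40 and 0.05 on its probes, with a limma adjusted p of 0.644 for the former. The probes of these genes thus disagreed in sign. The thrombospondin genes Thbs1 and Thbs2, the glypican gene Gpc4 and Chrdl1, all of secreted synapse-acting proteins, were above background on no array.

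Transcription factors of gliogenesis had 11 tested probes, 8 of them lower, and a median of -0.16. Hes5, a Notch target that maintains radial glia, had its probes at -0.59 (SE 0.18, limma adjusted p = 0.551) and -0.19. The first of these probes lay at 7.57 and 7.30 in wild-type and 7.02 and 6.67 in null samples. Among the NFI genes, Nfib differed by -0.24 and Nfix by 0.22 and -0.25, while the Nfia probe was above background on no array. Id4, a BMP-induced regulator, differed by -0.16.

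Signalling genes of the gliogenic cytokine, BMP and Notch pathways had 16 tested probes, 8 higher and 8 lower, and a median of 0.02. Ctf1, the gene of the ligand cardiotrophin-1 that neurons send to progenitors, lay at 6.57 and 6.70 in wild-type and 6.30 and 6.26 in null samples (difference -0.36, SE 0.16, limma adjusted p = 0.673). The related ligand genes Lif and Cntf were above background on no array. The kinase gene Jak2 differed by -0.29 and -0.03, the BMP receptor gene Bmpr1a by -0.04 and 0.29 and Smad1 by 0.03 and 0.06. Genes known to increase in reactive astrocytes were mostly not read. Of their 21 probes 5 were tested, and 7 of the 13 genes with a probe, among them Lcn2 and Serpina3n, were above background on no array. In that list Lgals3 differed by -0.03, the cytokine receptor gene Osmr by 0.03 and Vim by -0.35 (limma adjusted p = 0.714).

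**Figure D3:**
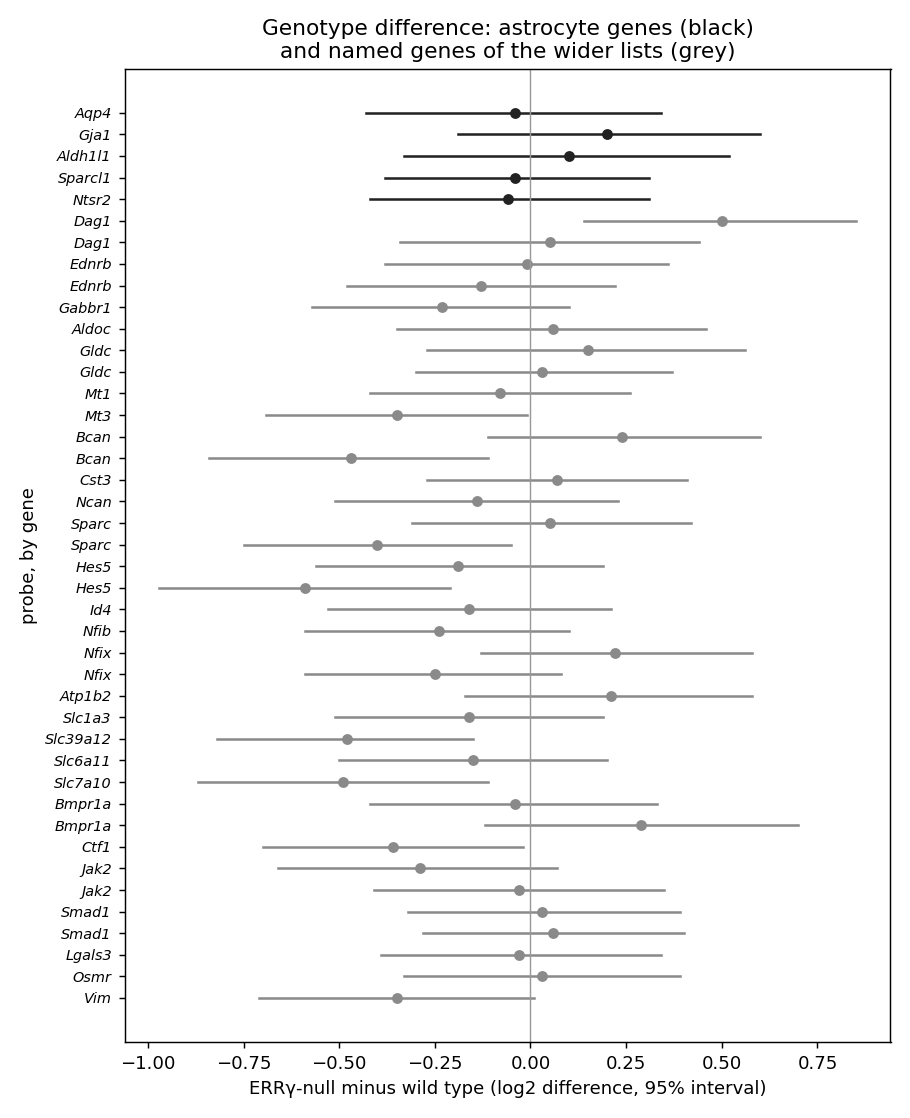
Log2 difference, ERRγ-null minus wild type, with its 95% limma interval, not adjusted for the number of probes (horizontal axis) for the 5 tested astrocyte probes (black) and the probes of the named genes of the wider lists (grey), 1 row per probe on the vertical axis. The black intervals all include 0. Grey probes of several genes, among them Dag1, Bcan, Sparc, Nfix and Hes5, lie apart from the other probe of the same gene. The null value behind the Slc39a12 row is not above background.

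A list of radial glia and intermediate progenitor genes had 12 tested probes of 7 genes, of which 10 probes were lower in ERRγ-null cortex. Nes, Sox2, Tnc and Vim stand in it for radial glia, the cells from which astrocytes arise. Eomes, Insm1 and Neurog2 are genes of neurogenic or intermediate progenitors, so the list does not read radial glia alone. Repeated readings of 1 gene enter that count, with 4 probes of Tnc and 2 each of Nes and Sox2. The list had a median of -0.19, 0 past the limma threshold and 1 of 12 probes at an unadjusted p under 0.05, against 7.07% of all tested probes. Their mean log2 level over the tested genes was 8.59 and 8.65 in the wild-type and 8.45 and 8.42 in the null samples, and Vim stands in this list and in the reactive one. The tested astrocyte genes had means of 7.53 and 7.16 in wild-type and 7.38 and 7.38 in null samples, so the low value was that of wild-type sample 2. Meningeal and fibroblast genes had 2 of 11 probes tested, with mean levels of 8.27, 8.09, 7.87 and 9.24 in the same order, the last in ERRγ-null sample 2, where Igf2 was at 11.37 and the tested Dcn probe at 7.12. Median log2 differences of the other lists were 0.06 for the oligodendrocyte lineage, 0.14 for microglia, -0.01 for endothelium and pericytes, -0.04 for neurons, 0.02 for ependyma and choroid plexus and 0.05 for erythroid genes, with 0 past the limma threshold in each. At an unadjusted limma p under 0.05 there were 2 of 7 oligodendrocyte probes, both higher in null cortex, 1 of 3 ependymal probes, also higher, 1 higher and 1 lower of 11 neuronal probes, and 0 in the other 3 lists. Among all tested probes 7.07% passed that level, 3.57% higher and 3.5% lower, and lists of so few probes give no usable share. The oligodendrocyte precursor gene Gpr17 was at 6.02 and 6.12 in wild-type and 6.78 and 6.68 in null samples (limma adjusted p = 0.496). A probe of the myelin gene Mbp lay at 6.77 and 7.01 in wild-type and 7.28 and 7.35 in null samples. Another tested Mbp probe lay at 8.72 and 8.53 in wild-type and 8.5 and 8.9 in null samples. Gpr17 and Mbp were named here after their values were seen. Of the 7 tested oligodendrocyte probes, 4 were higher and 3 lower in null cortex, the lower ones reading Cnp, Cspg4 and Olig1. Olig1 lay at 12.08 and 12.09 in wild-type and 11.95 and 12.09 in null samples. Pdgfra lay at 9.13 and 9.23 in wild-type and 9.23 and 9.24 in null samples. The part of radial glia or meninges in any astrocyte value was not tested.

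**Figure D4:**
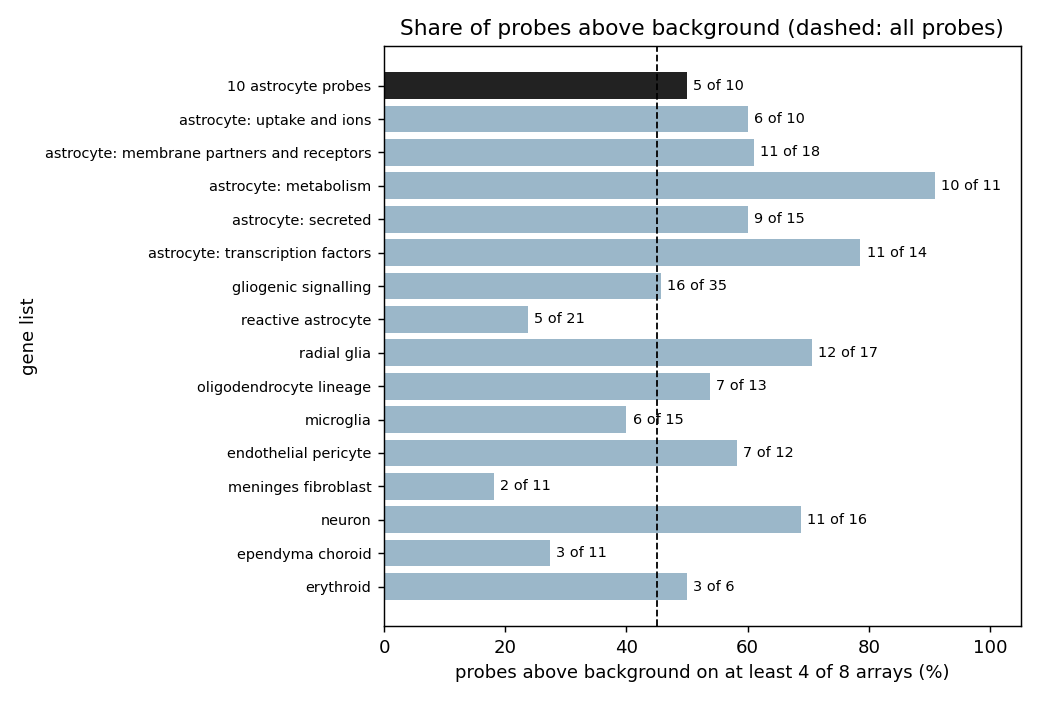
Percent of probes above background on at least 4 of 8 arrays (horizontal axis) for each gene list (vertical axis), with the number of probes beside each bar and the value of all probes, 45%, as a dashed line. The 10 astrocyte probes stand at 50%, the metabolic astrocyte list at 90.9% and the reactive list at 23.8%.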

How the data were processed

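RNA from newborn cortex (2 wild-type and 2 ERRγ-null samples, 2 arrays each) was read on Illumina bead arrays after biotin labelling, per the labels. The deposited values were linear mean bead intensities per probe and array, neither normalized between arrays nor, as far as the values show, background-subtracted, with a deposited detection p-value per probe. GenomeStudio was used, per the submitters' processing notes, with settings not stated there. A further deposited table holds intensities that the authors brought to a common distribution, by a method not stated.

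In R 4.3.3 with limma 3.58.1, neqc removed background estimated from the detection p-values (offset 16), then quantile-normalized the arrays on a log2 scale. Technical arrays were averaged, so n is 2 per genotype. Probes with a detection p under 0.05 on at least 4 of 8 arrays (11568 of 25697) were fitted with lmFit and eBayes (two-sided, Benjamini-Hochberg, threshold 0.05; 12.7 prior and 2 residual degrees of freedom). The fit was tested on simulated data. Symbols came from the platform annotation (23846 probes with 1 symbol, 0 with several, 1851 with none), and 0 symbols differed from a RefSeq table of GRCm38.p6, which 23830 probes matched. The files name no build.

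Members, lists and tests were chosen with earlier results of these data known. Named by rule were every member probe and, per wider list, the 3 genes of highest level and any gene at an unadjusted p under 0.05. Slc1a2, some genes above background on no array and genes of the other cell type lists were named outside that rule. Alternatives covered background, normalization, filter, arrays, variance prior, replicate block, left-out samples and probe choice. The number of samples limits the precision.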

Additional observations from a re-analysis of the deposited data

How the results depend on the processing

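The count of astrocyte probes past the limma threshold, and that of the wider astrocyte lists, stayed at 0 in all 17 alternatives, and adjusted p for the 5 tested members ran from 0.403 to 0.999. With median scaling Gja1 differed by 0.40, Aldh1l1 by 0.28, Aqp4 by 0.08, Sparcl1 by 0.14 and Ntsr2 by 0.07, where the median of all probes was 0.17, so the last 3 stayed below it as in the main analysis. Some signs turned with the arrays used. With the b arrays alone Aqp4, Sparcl1 and Ntsr2 were at 0.12, 0.10 and 0.08, and with the dimmest array dropped, the first of wild-type sample 1, they were 0.05, 0.02 and 0.01. Aldh1l1 was -0.08 with the first arrays alone. With each sample left out in turn, Gja1 ran from -0.05 to 0.46, Aldh1l1 from -0.20 to 0.39, Aqp4 from -0.26 to 0.17, Ntsr2 from -0.23 to 0.12 and Sparcl1 from -0.12 to 0.05. In these fits the lone sample of a genotype is assumed to vary like the others. The Sparcl1 gap between wild-type samples was 0.03 with the b arrays alone.

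The count of all probes past the threshold, 1 in the main analysis, was 5 with median scaling and 0 with no filter, with probes above background on all 8 arrays, with the first arrays, with the b arrays, with the dimmest array dropped and with the robust prior. Leaving out 1 sample gave 0 to 1, with 0 for wild-type sample 2 and for ERRγ-null sample 2. The replicate block gave 12. The labels share numbers between genotypes but give no shared litter or day, and deviations of same-numbered samples correlated at -0.00523, so the numbers were not treated as pairs. The causes of these shifts were not tested. A slide block was not run, as no slide is given in the sources used here. Detection limits Gfap, S100b, Mlc1, Glul and the other Aldh1l1 probe, for which a genotype difference was not detectable at this signal over background.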
